A study of Arabidopsis thaliana with 20 samples.

Results

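The HSP90 family of Arabidopsis thaliana was examined for binding of HSFA1d, and its members were chosen by locus identifier: HSP90.1 (AT5G52640), HSP90.2 (AT5G56030), HSP90.3 (AT5G56010), HSP90.4 (AT5G56000), HSP90.5 (AT2G04030), HSP90.6 (AT3G07770) and HSP90.7 (AT4G24190). These are 7 of 27444 nuclear protein-coding genes. A gene was counted as having a peak when any annotation row of a peak list named it, either as a gene or as a promoter. Of the 7502 peaks in the 6 lists, 29 were annotated to at least 1 HSP90 gene.

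HSFA1d was mapped by chromatin immunoprecipitation and sequencing in whole seedlings aged 2 weeks. All groups carried the transgene pHSFA1d::HSFA1d-GFP, a fusion of HSFA1d to green fluorescent protein driven by the HSFA1d promoter, in a mixed background of Columbia-0 and Wassilewskija, and chromatin was pulled down through the GFP tag. The heat experiment held HS (30 min at 37 °C) and HT0 (time 0, no heat), with 3 ChIP and 3 input samples each. The wounding experiment held WT0 (time 0, no wounding), W10min (10 min after cutting), W3h (3 h) and W24h (24 h), with 1 ChIP and 1 input sample each. Each sample was a pool of about 60 seedlings grown at 22 °C, so cells of all organs were mixed. The number of independent transgenic lines, and whether the plants kept a working endogenous HSFA1d, are not stated in the sources used here. Reads were concatenated within a condition before peaks were listed. Each condition therefore has 1 list, values carry no replicate spread, and no difference between conditions was tested. The labels state at least 10 M mapped reads for a library, and depth beyond that is unknown. HS held 2103 peaks and HT0 1336, and the wounding lists held 1483 (WT0), 1445 (W10min), 626 (W3h) and 509 (W24h).

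HSP90 proteins are ATP-driven chaperones that act late in folding, on clients such as kinases, receptors and transcription factors. In the cytosol they also hold heat shock factors inactive, and unfolded proteins draw the chaperones away, which frees the factors to bind heat shock elements in chaperone promoters. In Arabidopsis, HSP90.1 is the cytosolic form known as heat-inducible, HSP90.2, HSP90.3 and HSP90.4 are cytosolic forms made in unstressed plants, and HSP90.5, HSP90.6 and HSP90.7 serve the chloroplast, the mitochondrion and the endoplasmic reticulum. Binding, not expression, was measured here.

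After heat, 6 of the 7 HSP90 genes had a peak in HS, against 3 in HT0. The share of all coding genes with a peak was 7.82% in HS and 3.11% in HT0. In the wounding experiment WT0 had 3 members with a peak, W10min had 5, W3h had 5 and W24h had 4, where the shares of all coding genes were 7.1%, 7.1%, 2.55% and 1.46%. The lists that held a member differed within the organelle class. The constitutive HSP90.2, HSP90.3 and HSP90.4 were in all 6 lists, as were 0.492% of all coding genes, HSP90.4 through a peak that lay at HSP90.3. The inducible HSP90.1 was in HS, W10min and W3h and in neither time 0 list. Of the organelle members, chloroplast HSP90.5 was in HS and in all 3 lists after wounding, mitochondrial HSP90.6 was in HS, and HSP90.7 of the endoplasmic reticulum was in none of the 6 lists.

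The peak of HSP90.1 in HS lay on chromosome 5 from 21351729 to 21353142 in the TAIR10 build, 1414 bp wide, and ran from 670 bp upstream of the gene start to 743 bp inside the gene. Its fold enrichment, the authors' ratio for each peak, was 5.35, the fifth highest of the list, and its q, the authors' adjusted significance, was 2.35e-39. No HT0 peak met it. In W10min the peak was 202 bp wide, from 21352244 to 21352445, with 2.43-fold enrichment (q 6.77e-05). In W3h it was 310 bp wide, from 21352240 to 21352549, with 1.85-fold enrichment (q 0.024). All 3 peaks held the same 202 bp around the gene start, which is the whole W10min peak. Fold enrichment ranks peaks only within a list, and there 99.8% of HS peaks, 82.2% of W10min peaks and 55.3% of W3h peaks were at or below the HSP90.1 fold. Ranks from lists of different lengths do not measure a change. The 3 peaks were also annotated to the promoter of the neighbour AT5G52620, and the HS peak reached into MEF1 (AT5G52630). A second HS peak of 137 bp lay inside HSP90.1, 2366 to 2502 bp from its start, with 1.62-fold enrichment (q 0.35).

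HSP90.2 had a peak over its start in every list. In HS it covered 22686632 to 22687161 on chromosome 5 at 5.40-fold (q 5.56e-40), and in HT0 it covered 22686672 to 22686844 at 1.72-fold (q 0.0283). The HS peak thus held the whole HT0 peak and was the fourth highest of its list by fold, where the HT0 peak ranked 554 of 1336. In the wounding series the fold was 4.12 in WT0 (q 1.3e-20), 7.29 in W10min (q 4.12e-55), 5.09 in W3h (q 6.25e-38) and 2.42 in W24h (q 4.22e-05). By fold it ranked 25 of 1483 peaks in WT0, 3 of 1445 at W10min, 2 of 626 at W3h and 113 of 509 at W24h. A stretch of 167 bp, 22686672 to 22686838, from 130 bp upstream to 36 bp inside the gene, was common to all 6 peaks. No other gene was annotated to these 6 peaks. The untreated lists stood apart from each other: WT0 and HT0 are both unstressed seedlings, yet the fold was 4.12 and 1.72 in lists made from 1 and 3 ChIP samples. The highest fold of any peak was 5.22 in WT0 and 3.51 in HT0.

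**Figure D1:**
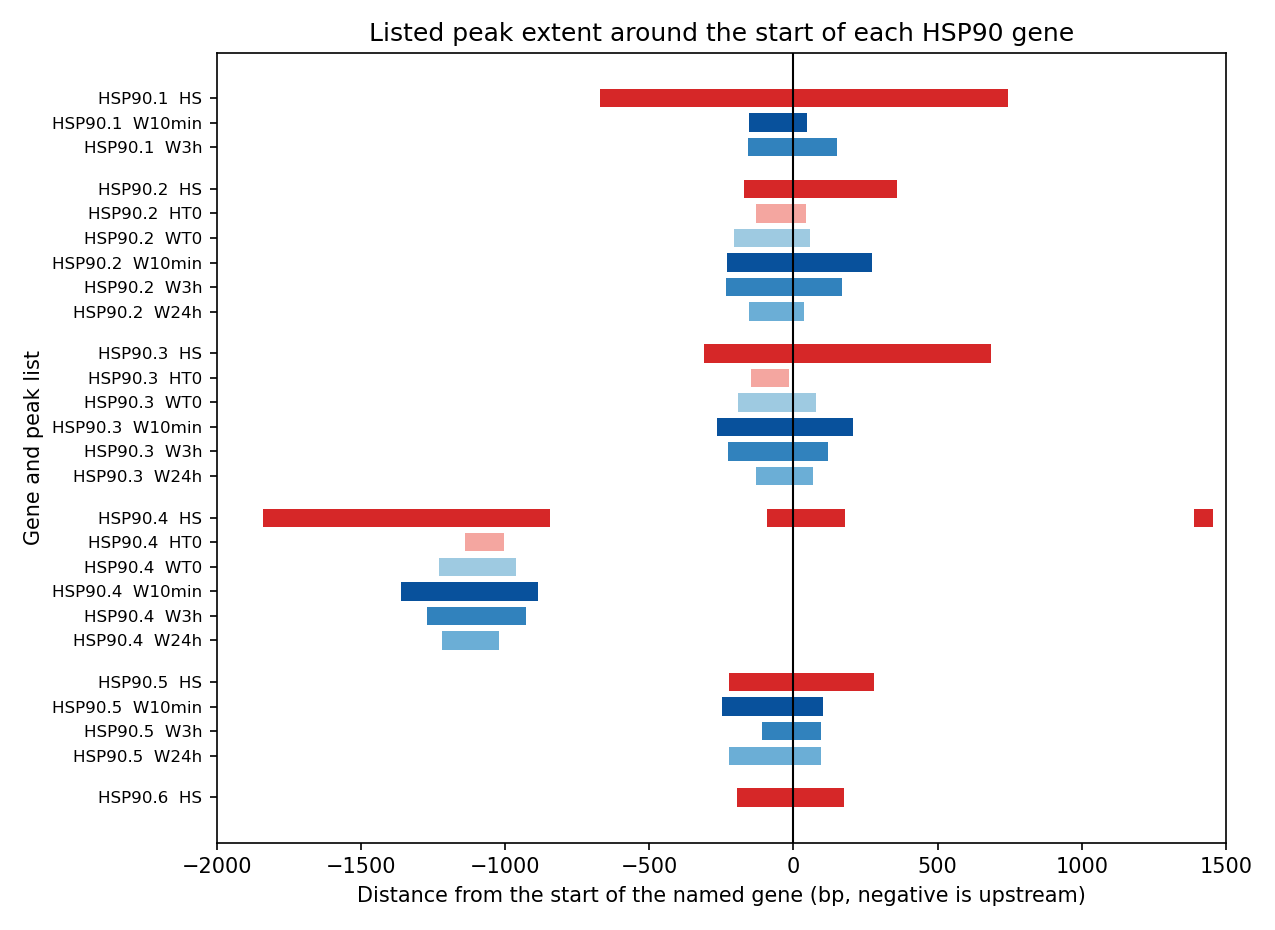
Horizontal bars show the listed extent of peaks around the start of each HSP90 gene, in bp from the start (negative is upstream), 1 row per gene and peak list, with colours for the lists. For HSP90.4 all its peaks inside the plotted window of 2000 bp upstream to 1500 bp downstream are drawn, for the others the highest by fold. The peaks of HSP90.1, HSP90.2, HSP90.3, HSP90.5 and HSP90.6 lie on or just upstream of the start, whereas the highest peak counted for HSP90.4 lies at least 844 bp upstream in all 6 lists, and in HS a weaker peak covers its start.

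HSP90.3 and HSP90.4 stand back to back on chromosome 5, on the forward and the reverse strand, with 1153 bp between their starts, and in every list the highest peak of both was a single shared peak. That peak lay at HSP90.3. Across the 6 lists its common part was 117 bp, 22681174 to 22681290, from 131 to 15 bp upstream of the HSP90.3 start. In HS its near edge was 844 bp upstream of the HSP90.4 start, and in the other 5 lists 888 to 1022 bp. The fold was 5.21 in HS (q 1.71e-37) and 1.68 in HT0 (q 0.051). It was 2.31 in WT0 (q 1.42e-04), 7.56 in W10min (q 1.18e-58), 4.69 in W3h (q 2.47e-32) and 2.29 in W24h (q 2.81e-04). By fold the shared peak ranked 11 of 2103 in HS and 627 of 1336 in HT0, and it was the second highest peak of W10min and the third of W3h. In HS, W10min and W3h it was annotated also to the promoter of AT5G56020, the gene between HSP90.3 and HSP90.2.

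HSP90.4 had a peak over its own start in HS only. It covered 22679972 to 22680245, from 93 bp upstream to 180 bp inside the gene, at 2.06-fold (q 0.001), and no time 0 peak met it. Counting only peaks that cover both the promoter row and the gene row of a member, a rule chosen after seeing the data, left 6 members in HS and 1 in HT0, against 1.79% and 0.474% of all coding genes. In the wounding series WT0 kept 2 members under this rule, W10min 4, W3h 4 and W24h 3, against 1.48%, 1.59%, 0.674% and 0.383% of coding genes. The members that dropped out were HSP90.4 in every list but HS, and HSP90.3 in HT0, whose peak ended 15 bp before the gene.

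The HS list held further weak peaks around these genes. Of the 14 HS peaks annotated to a member, 6 covered the start of a member and 8 did not. Of those 8, 7 lay inside HSP90.2, HSP90.3 or HSP90.4, most of them inside HSP90.3. Their folds ran between 1.52 and 2.24 and their widths between 60 and 240 bp, and 5 of the 8 had a q above 0.05. The strongest, at 22682597 to 22682739 inside HSP90.3, was enriched 2.24-fold (q 5.76e-05). In the other 5 lists the 15 member peaks all lay at or just upstream of a gene start. HSP90.2, HSP90.3 and HSP90.4 encode closely similar proteins, reads were 50 bases long, and the sources used here do not say how reads that match several places were treated, so peaks inside these genes are uncertain as to which copy they came from.

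**Figure D2:**
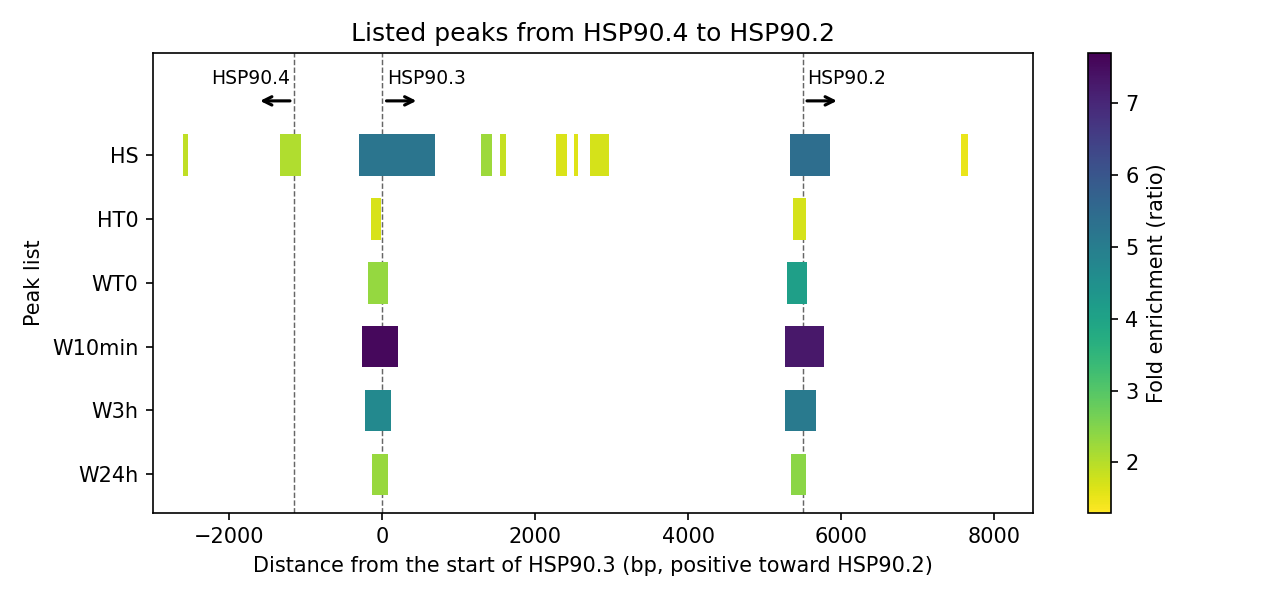
Bars mark the listed peaks of HSP90.4, HSP90.3 and HSP90.2 in the 6 lists, at their distance in bp from the start of HSP90.3, coloured by fold enrichment (ratio). Dashed lines and arrows give the starts and directions of the 3 genes. A peak stands at the starts of HSP90.3 and HSP90.2 in every list, darkest in W10min, and HS alone has a peak at the start of HSP90.4 and small peaks inside the genes.

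Chloroplast HSP90.5 was bound at its start in HS on chromosome 2, 1281616 to 1282121, at 3.39-fold (q 1.17e-14), and it had no HT0 peak. After wounding its fold was 3.65 in W10min (q 3.27e-14), 1.75 in W3h (q 0.0908) and 1.91 in W24h (q 0.0424), with no WT0 peak. The HS and W10min peaks were thus strong and those of W3h and W24h weak, near or above a q of 0.05. The 4 peaks shared 206 bp, 1281731 to 1281936, from 110 bp upstream to 95 bp inside the gene. No other gene was annotated to them. Mitochondrial HSP90.6 had a single peak, in HS, on chromosome 3 from 2479352 to 2479722, at 2.41-fold (q 4.54e-06), from 196 bp upstream to 174 bp inside the gene. It ranked 313 of 2103 by fold, and the peak over the start of HSP90.4 ranked 522.

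HSP90.7, which folds secreted and membrane proteins in the endoplasmic reticulum, had no row in the 6 lists. With depth unknown, its binding was not detected, which does not show that it is absent.

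Within a list the members' folds can be set side by side. In HS the folds ran HSP90.2 (5.40), HSP90.1 (5.35), the shared HSP90.3 and HSP90.4 peak (5.21), HSP90.5 (3.39) and HSP90.6 (2.41). In W10min they ran HSP90.3 with HSP90.4 (7.56), HSP90.2 (7.29), HSP90.5 (3.65) and HSP90.1 (2.43). The inducible member thus stood level with HSP90.2 in HS and below the chloroplast member in W10min, while in W3h it was at 1.85-fold, beside 1.75-fold for the chloroplast member. The ratio of the HSP90.1 fold to the HSP90.2 fold was 0.991 in HS, 0.333 in W10min and 0.363 in W3h. Folds near the top of HS lay close together: the peaks ranked 2, 3, 7 and 16 were at 5.55, 5.50, 5.30 and 5.11. A ratio near 1 there is therefore not particular to HSP90.1. The inducible HSP70 gene, compared below, likewise stood beside the constitutive HSC70-3 in HS (5.55 and 5.50). The HSP70 fold was below that of HSC70-3 in W10min (3.58 and 7.16) and in W3h (2.54 and 5.19). Not every cytosolic HSP70 gene stood beside HSC70-3 in HS. HSP70B (AT1G16030), named after its values were seen, was at 3.93-fold in HS and had no peak in any other list. The ratio of HSP90.5 to HSP90.2 was 0.627 in HS and, after wounding, 0.5 at 10 min, 0.343 at 3 h and 0.789 at 24 h. The ratio of HSP90.2 to HSP90.3 was 1.79 in WT0 and between 0.964 and 1.09 in the other 5 lists.

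Many of the deposited folds, though not all, fell on even steps. A step is a spacing of values and not a measure of error. In each list the highest fold of every bound member was a whole multiple of 1 step, within 0.02 of a step. The step was 0.0491 in HS and 0.0373 in HT0, and in the wounding lists 0.0607 (WT0), 0.0675 (W10min), 0.0499 (W3h) and 0.0637 (W24h). Of all peaks, 39.7% (W24h) to 84.9% (WT0) fell on such a multiple. HSP90.1 and HSP90.2 were 1 step apart in HS, at 109 and 110 steps, and HSP90.2 and HSP90.3 were 1 step apart in HT0 and 2 in W24h. In W3h HSP90.1 was 2 steps above HSP90.5. These neighbours cannot be put in order on values without a replicate. In WT0 HSP90.2 stood 30 steps above HSP90.3, and in W10min HSP90.1 stood 18 steps below HSP90.5 and 72 below HSP90.2.

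**Figure D3:**
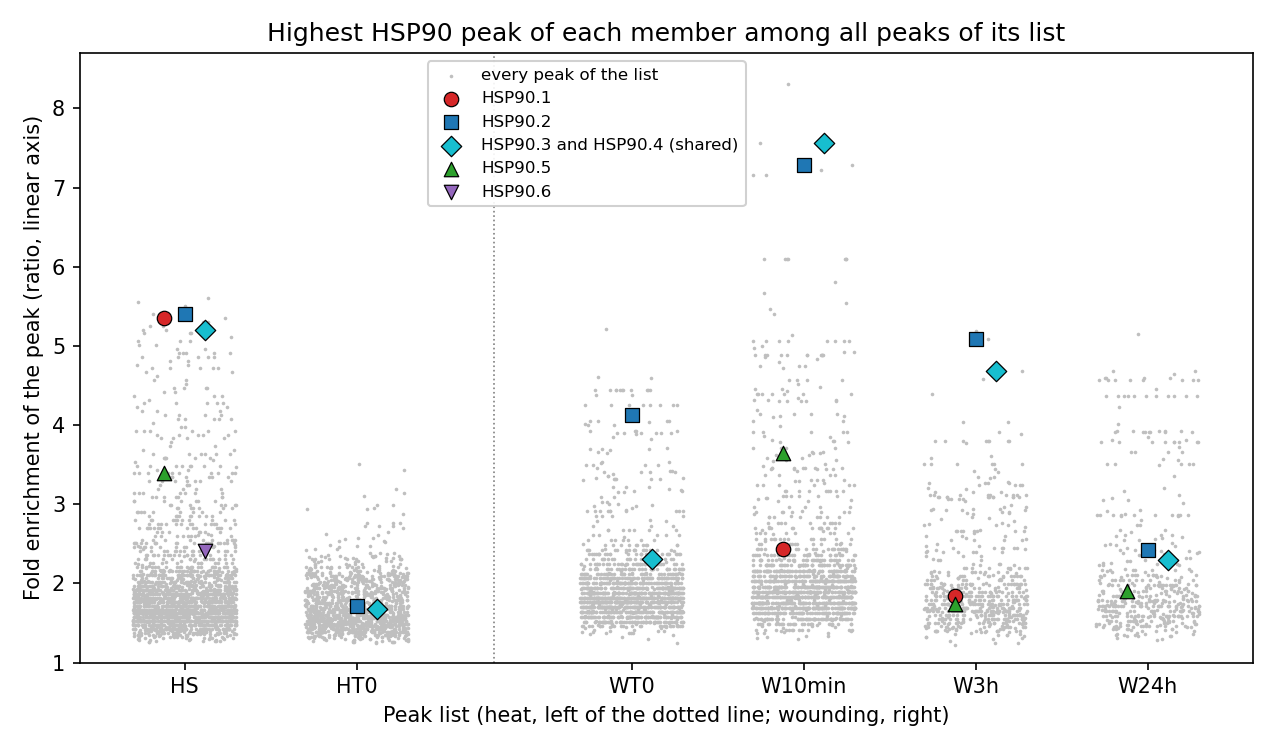
Grey points are the fold enrichment (ratio, linear axis) of every peak in each list, spread sideways for sight, and coloured symbols are the highest peak of each bound HSP90 member. HSP90.1 lies beside HSP90.2 at the top of HS but well below it in W10min and W3h, and in HT0 the members lie within the bulk of the list.

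Members gained, meaning with a peak after treatment and none in the matched time 0 list, were 3 of the 4 that lacked an HT0 peak in HS: HSP90.1, HSP90.5 and HSP90.6. Among all coding genes without an HT0 peak, 6.21% were gained. At 10 min and at 3 h 2 of the 4 members free of a WT0 peak were gained, HSP90.1 and HSP90.5, against 4.55% and 1.14% of coding genes. At 24 h HSP90.5 was gained, 1 of 4, against 0.588% of coding genes. The lists after wounding share WT0 as control. No member with a time 0 peak lacked one after treatment. By position, 2 of the 14 distinct HS peaks met an HT0 peak, those at HSP90.2 and HSP90.3, and at each time after wounding the peaks at the same 2 starts met a WT0 peak while those of HSP90.1 and HSP90.5, where listed, met none.

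Several peaks of the members were weak, so a strict threshold removed them. With a q of at most 1e-05 a peak was left for 6 members in HS and 0 in HT0, against 2.38% and 0.561% of coding genes. In the wounding series WT0 kept 1 member at this threshold, W10min 4, W3h 3 and W24h 0, against 0.649%, 1.18%, 0.598% and 0.361%. At this threshold 6 of 7 members counted as gained in HS, the constitutive ones included, since their HT0 peaks were weak, against 2.03% of coding genes. HSP90.1 kept a peak in HS alone.

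HSP90 works with co-chaperones that load clients, drive its ATP cycle or release it, and 15 of their genes were taken for comparison. Of these, HS listed 7 and HT0 listed 0, against 7.82% and 3.11% of all coding genes. Along the wounding series 1 (WT0), 4 (W10min), 4 (W3h) and 0 (W24h) had a peak, against 7.1%, 7.1%, 2.55% and 1.46%. No co-chaperone had a peak in all 6 lists. The share of all coding genes there was 0.492%, so none among 15 genes does not set the co-chaperones apart. HOP3, a bridge between HSP70 and HSP90, had a fold of 5.26 in HS, 2.63 in W10min and 2.24 in W3h. The peptidyl-prolyl isomerase ROF1 had 5.21 in HS, 2.12 in WT0, 5.00 in W10min and 2.44 in W3h, and its relative ROF2 had 5.11 in HS and no peak elsewhere. The AHA1-like gene, of an activator of the HSP90 ATPase, had 4.47 in HS, 3.71 in W10min and 2.09 in W3h. Like HSP90.1, the genes HOP2, HOP3 and AHA1-like had a peak in HS, W10min and W3h and in no other list. No peak in any list was annotated to 8 of the 15 genes. Of the client adaptors SGT1A and SGT1B, named after their values were seen, SGT1A had a peak in HS, at 3.39-fold (q 1.17e-14), and SGT1B had none.

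Of 5 cytosolic HSP70 genes, HS listed 5 and HT0 listed 2, and along the wounding series 3 (WT0), 4 (W10min), 4 (W3h) and 3 (W24h) had one. The shares of all coding genes were 7.82% in HS and 3.11% in HT0, and 7.1% (WT0), 7.1% (W10min), 2.55% (W3h) and 1.46% (W24h). With a q of at most 1e-05 the counts were 5 in HS and 0 in HT0, against 2.38% and 0.561% of coding genes. At that threshold the wounding series kept 2 (WT0), 4 (W10min), 4 (W3h) and 2 (W24h), against 0.649%, 1.18%, 0.598% and 0.361%. HSC70-1 and HSC70-3, constitutive forms, had a peak in all 6 lists, as HSP90.2 had. HSC70-2, named after its values were seen, had no peak in HT0 or W24h, and its WT0 peak was weak, at 1.74-fold (q 0.137). Genes alike in pattern were sought among coding genes outside the family that share no peak with it, by the mean absolute difference in fold percentile over the 6 lists, with 0 for a list without a peak. The gene most like HSP90.2 was HSC70-3 (AT3G09440), 1.31 percentile points away, tied with the neighbouring locus AT3G09450, which had the same fold in all 6 lists. Whether the 2 loci share their peaks was not examined, so they are not counted as separate matches. Among these genes HSC70-3 and AT3G09450 were also nearest to HSP90.3 and HSP90.4, at 3.47 points. For HSP90.1 the nearest were HOP2 (AT1G62740), another HSP70 to HSP90 bridge, and its neighbouring locus AT1G62730. Both were at 1.47 points, or 2.93 over the 3 lists in which they had a peak. Both had a fold of 4.27 in HS, 2.97 in W10min and 1.85 in W3h, and whether they share these peaks was likewise not examined. For HSP90.5 the nearest was the inducible HSP70 (AT3G12580), at 9.08 points, or 13.6 over the 4 lists in which it had a peak, with a fold of 5.55 in HS and 3.58, 2.54 and 2.04 at 10 min, 3 h and 24 h of wounding, followed by AT4G22660 at 9.80 points.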

How the data were processed

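Bowtie2, SAMtools, MACS2 and the TAIR10 build are named in the submitters' processing notes, without versions. Each peak's fold enrichment is a ratio and its significance a −log10 q-value, both deposited by the authors, per the file headers. Reads were pooled within a condition, per the labels. The files' starts count from 0 and 1 was added. Rows with equal fold and q were merged into 1 peak when no more than 1 base separated them. This rebuilt 100% of 2000 simulated peaks, but their rows were cut exactly 1 base apart, with fold and q drawn at random. The simulation therefore checked the code only. Overlapping rows, unlisted stretches within a peak and the tied values of the real lists were not simulated. Promoter rows are up to 3001 bp wide, and peak parts outside annotated features are not listed. Gene starts are the boundaries between promoter and gene rows in the files. Exons, introns and UTRs were not used here. Symbols and the coding background were taken from RefSeq's gene table (assembly TAIR10.1), which matched all 7 members and all 20 comparison genes. An overlap of 1 bp sufficed for peaks to meet. Values were described without a test.

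Named genes were the members, genes sharing a peak with a member, up to 4 co-chaperones and 3 HSP70 genes of highest fold, and the 2 most alike genes for members in at least 3 lists; others are named only where said. The members and lists were chosen with earlier results of these data known. Python 3.11.15, pandas 2.3.3, numpy 2.4.6, scipy 1.17.1 and matplotlib 3.10.9 were used.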

Additional observations from a re-analysis of the deposited data

How the results depend on the processing

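No paired analysis was possible because the reads of HS and HT0 replicates were concatenated into 1 list each; for the same reason no replicate could be left out. Of 74 alternative values for the counts of members, 54 stayed within 1.5 times the reported count and 20 did not. Members with a peak stayed within it in HS (6) under every setting run. The lowest HS count was 4, with peaks annotated to no other coding gene, and HSP90.1 was among those 4 only through its peak at a q of 0.35. In HT0 (3 as reported) members with a peak were 1 at a q of at most 0.05 and in gene rows only. They were also 1 with peaks annotated to no other coding gene and with peaks over the member's own promoter and gene rows. They were 0 under a q limit of 1e-05 or with 509 peaks taken by fold from each list. At a q of at most 1e-05 they were 1 in WT0, 3 in W3h and 0 in W24h. With peaks annotated to no other coding gene they were 1 in WT0 and 2 in W10min, W3h and W24h, since the HSP90.3 and HSP90.4 peak is shared and the HSP90.1 peak of W10min and W3h is also annotated to AT5G52620. Members gained in HS (3) were 5 at a q of at most 0.05 and 6 under a q limit of 1e-05 or with 509 peaks. In W3h 1 was gained at a q of at most 0.05, and in W24h 0 at a q of at most 1e-05. HS member peaks meeting an HT0 peak (2) were 0 at a reciprocal overlap of 50% and 1 with midpoints within 200 bp. Ranking by q moved 17 of 26 percentiles beyond their 95% binomial interval, and ranking among peaks that touch a coding gene moved 6. In each list these percentiles count the shared HSP90.3 and HSP90.4 peak once for each gene, so they are not 26 distinct peaks. The q and peak-number settings keep fewer peaks by construction; otherwise the cause was not tested.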

Other observations

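In W10min and W3h the rank of the strongest HSP90 peaks differed between fold and q. The shared HSP90.3 and HSP90.4 peak was number 2 by fold in W10min and 80 by q, and number 3 by fold in W3h and 83 by q. Of the 79 W10min peaks with a lower q, 67 lay on chromosome 2, and of the 82 such W3h peaks, 70 did. In HS the same peak was number 11 by fold and 11 by q, and 1 of the 10 peaks of lower q lay on chromosome 2. In the remaining lists 281 of 701 (HT0), 90 of 212 (WT0) and 93 of 158 (W24h) such peaks did. The share of all peaks of a list on chromosome 2 was not computed, so an excess there cannot be read from these counts.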
